A study of Mus musculus with 3 samples.

Results

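The circadian clock genes of the mouse retina were followed across its cell classes and across 3 single-cell RNA sequencing libraries. The group is a fixed list of 10 gene symbols (Dbp, Tef, Per1, Per2, Per3, Nr1d1, Nr1d2, Arntl, Ciart and Clock) out of 32285 genes in the deposited count tables, and all 10 were found there. Each library stands for 1 age of untreated C57BL/6JRj mice. Young mice were 3 months old, Adult mice 12 months and Old mice 23 months, with no replicate library at any age. In each, 4 retinas from 2 mice were pooled, vascular structures were pelleted after a first digestion, and cells were enriched with CD31 microbeads, which bind an endothelial surface protein. Mice were culled by CO2 overdose, and the hour at which retinas were collected is not given in the sources used here. Age, library, preparation and collection time therefore cannot be told apart in any comparison between libraries, and no p-value is given for one.

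The mammalian clock is a feedback loop of transcription. ARNTL (also called BMAL1) pairs with CLOCK, binds E-box sequences and switches on the Per, Cry and Nr1d genes. PER and CRY proteins then repress that pair, while NR1D1 and NR1D2 (REV-ERBs) repress Arntl, so that Arntl and the E-box targets peak at opposite times of day. DBP and TEF are output factors that bind D-box sequences. The retina keeps its own clock, which is known to pace dopamine release and photoreceptor physiology.

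The 3 libraries held 2491, 3243 and 2751 barcodes (Young, Adult and Old) with 16577026, 19977238 and 17021820 unique molecular identifiers (UMIs), and 1705, 1957 and 1701 cells were kept. Among the kept cells, only Adult and Old shared barcodes, 2 in number. Clustering without the clock genes gave 6 classes with at least 30 cells in every library. These were endothelial cells (446, 429 and 411), pericytes (171, 130 and 101), Müller glia (181, 214 and 210), bipolar cells (200, 207 and 167), cones (70, 103 and 72) and rods (166, 321 and 235). Both endothelial clusters carried 8 of 8 endothelial markers, and both rod clusters 8 of 8 rod markers. The weakest match was 5 of 10 bipolar markers, in 3 bipolar clusters. A further 783 droplets carried endothelial and pericyte markers together and were kept apart. Another 222 cells (62, 74 and 86) carried 8 of 8 endothelial markers with a median of only 2092 UMIs. They were left unnamed and entered no class. Levels are given in CPM, the usual per-library scale in which the UMIs of a gene are divided by all UMIs of its class in that library and multiplied by 1000000. UMIs here count the 3′ ends of transcripts, so levels are compared between classes and libraries and never between genes.

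The promoters of 4 clock genes show the E-box and D-box elements of the loop. RefSeq (GRCm38.p6) windows of 250 bases before the start site were at hand for 9 of the 10 genes, in 14 windows; Per2 had no entry. The E-box CACGTG, searched on both strands, was in the windows of 3 of these genes, Tef, Per1 and Ciart, and in those of 6.86% of all 27025 genes (6.02% of 32851 windows). The D-box TTATGTAA was in 1, Per3, and in the windows of 0.977% of all genes (0.819% of windows). The D-box spelling TTACGTAA (0.113% of all windows), the ROR elements TAGGTCA (2.23%) and TGGGTCA (3.24%) and the cAMP element TGACGTCA (1.55%) were in no member's window. None of these motifs overlapped another. The windows are shown for the genes with a match, without bases that GENCODE M21 counts as exon, 5′ to 3′ on the gene's strand, with the motif in capitals. Ciart (chr3:95882252-95882478, minus strand) holds 3 E-boxes, which begin 116, 58 and 44 bases before the start. Per1 (chr11:69098699-69098947, plus strand) holds 1 at 166 bases, and Tef (chr15:81811164-81811413, plus strand, the second of its 2 windows) 1 at 138 bases. The first Tef window, which is all exon and not shown, holds 1 at 127 bases. Per3 (chr4:151044666-151044915, minus strand) holds D-boxes at 205 and 158 bases. A match describes the letters in the window and is not evidence of a bound site.
Ciart: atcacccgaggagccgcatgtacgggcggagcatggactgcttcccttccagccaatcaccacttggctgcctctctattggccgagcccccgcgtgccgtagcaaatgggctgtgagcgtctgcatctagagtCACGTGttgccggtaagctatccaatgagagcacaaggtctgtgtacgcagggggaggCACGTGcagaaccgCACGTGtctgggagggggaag
Per1: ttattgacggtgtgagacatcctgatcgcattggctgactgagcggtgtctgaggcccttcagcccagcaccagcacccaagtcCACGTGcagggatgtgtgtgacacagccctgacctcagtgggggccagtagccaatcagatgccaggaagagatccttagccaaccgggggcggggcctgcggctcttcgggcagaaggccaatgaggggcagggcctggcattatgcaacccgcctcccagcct
Tef: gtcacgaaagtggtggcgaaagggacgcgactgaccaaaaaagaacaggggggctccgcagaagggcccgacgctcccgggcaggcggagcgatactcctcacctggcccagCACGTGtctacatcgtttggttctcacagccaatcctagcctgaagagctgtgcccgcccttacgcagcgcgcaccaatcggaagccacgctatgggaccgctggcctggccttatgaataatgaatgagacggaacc
Per3: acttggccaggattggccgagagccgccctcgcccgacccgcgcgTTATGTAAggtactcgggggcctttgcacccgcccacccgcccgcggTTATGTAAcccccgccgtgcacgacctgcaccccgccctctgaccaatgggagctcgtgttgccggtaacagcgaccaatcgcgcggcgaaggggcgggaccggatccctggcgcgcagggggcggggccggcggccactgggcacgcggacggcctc

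The first question was how clock gene levels differed between retinal cell classes. Dbp, Tef, Per3 and Ciart were highest in bipolar cells and Müller glia, and 9 of the 10 genes were lowest or next to lowest in rods. Arntl had its highest class level in rods, where a cluster of 203 cells held 104 CPM and the other 519 cells 41.2 CPM, below the mean of Müller glia (50.4). All 10 genes differed among the 6 classes in edgeR's quasi-likelihood test with library as a block, as did 92.2% of the 12068 genes tested, so a difference as such says little about clock genes. The 3 libraries served as replicates of each class and differ in age and preparation. With library as a block, the p-values measure how far the differences between classes varied from library to library.

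**Figure D1:**
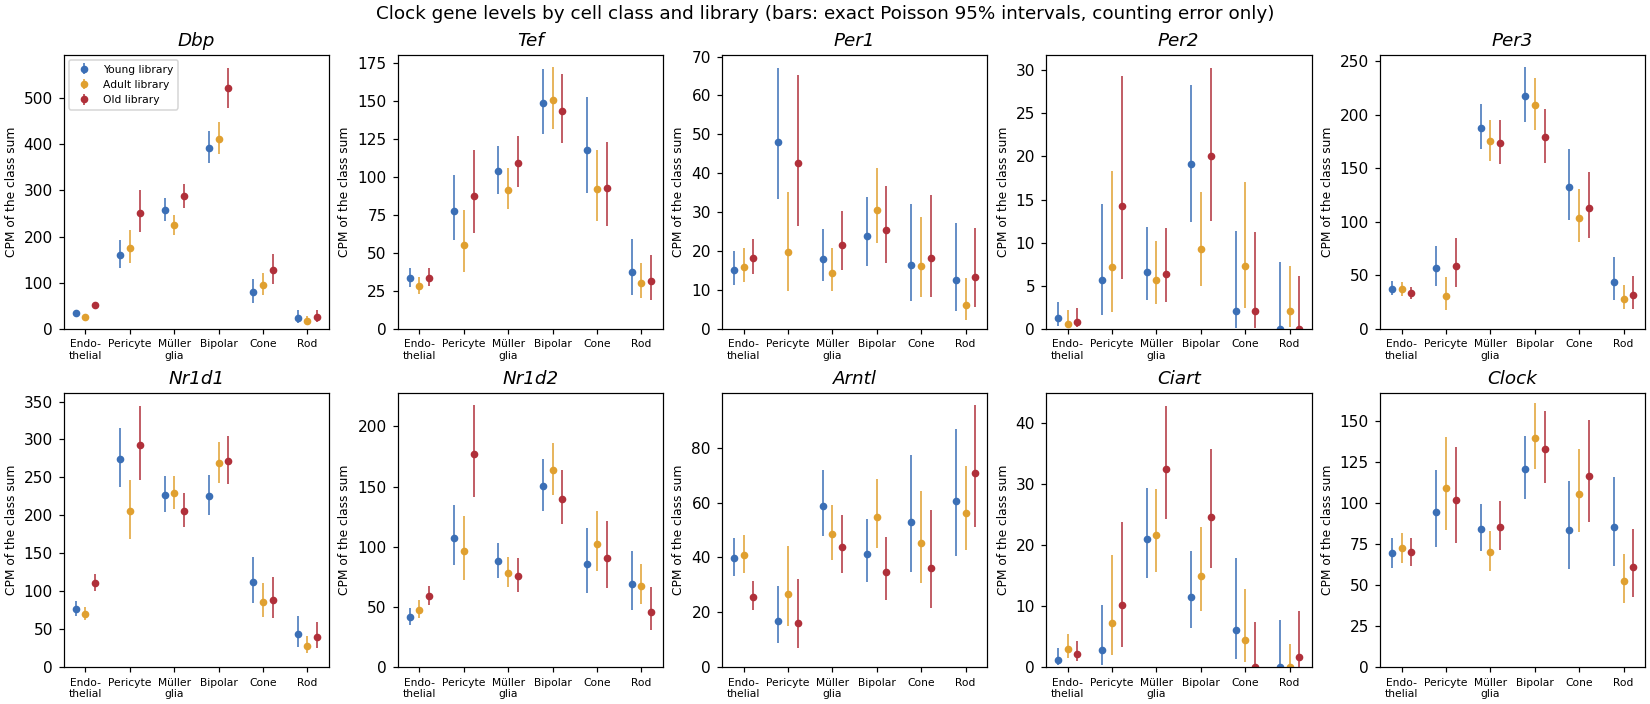
CPM (linear axis) of each clock gene by cell class, with 1 point per library (Young, Adult, Old) and exact Poisson 95% intervals that cover counting error only. Dbp ran from 17.1 CPM in rods to 522 CPM in bipolar cells, while Arntl was highest in rods at 56.4 to 70.8 CPM.

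Of the output factors Dbp and Tef, Dbp (chr7:45705088-45710203, GRCm38, plus strand) had the wider range. In bipolar cells it stood at 393, 413 and 522 CPM in the Young, Adult and Old libraries, from 512, 579 and 574 UMIs. Müller glia followed at 258, 224 and 287 CPM and pericytes at 159.8, 175 and 252 CPM. Cones held 79.3, 95.04 and 127 CPM, endothelial cells 34.4, 24.6 and 50.9 CPM and rods 22.9, 17.1 and 24.7 CPM. The ranges of pericytes and Müller glia overlapped, as did those of endothelial cells and rods, while the other neighbours in this order did not. Against the mean of the other 5 classes, Dbp was higher by 2.29 ± 0.09 log2 units (SE from the edgeR fit over all classes, n = 3 libraries per class) in bipolar cells (edgeR, adjusted p = 1.12e-27) and by 1.55 ± 0.09 in Müller glia (edgeR, adjusted p = 2.84e-20). It fell by 1.76 on the log2 scale in endothelial cells (edgeR, adjusted p = 4.72e-18) and fell by 2.77 in rods (edgeR, adjusted p = 1.86e-17).

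Tef (chr15:81802421-81826863, plus strand), a relative of Dbp with the E-box window shown above, kept much the same order over a narrower range. Its mean was 148 ± 3.81 CPM in bipolar cells (SD, n = 3 libraries), 102 ± 9.16 in Müller glia and 101 ± 14.8 in cones. Levels were 73.5 ± 16.4 in pericytes, 33.0 ± 3.95 in rods and 31.8 ± 3.15 in endothelial cells. Müller glia and cones could not be separated (edgeR, adjusted p = 0.237), nor could cones and pericytes (edgeR, adjusted p = 0.135) or rods and endothelial cells (edgeR, adjusted p = 0.995).

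The repressors differed in where they were detected. Per3 (chr4:151003652-151044665, minus strand) stood at 218, 209 and 179 CPM in the bipolar cells of the Young, Adult and Old libraries and at 188, 175 and 174 CPM in Müller glia. These classes did not separate (edgeR, adjusted p = 0.956). Cones followed at 116 ± 14.53 CPM (SD, n = 3 libraries), and pericytes, endothelial cells and rods lay between 28.2 and 58.9 CPM in every library. Per1 (chr11:69095217-69109960, plus strand), which responds quickly to light and stress signals, was instead highest in pericytes, at 48.1, 19.6 and 42.7 CPM. Its pericyte difference was 1.16 ± 0.23 log2 units (SE, n = 3 libraries; edgeR, adjusted p = 4.11e-05), although the Adult pericytes fell inside the range of the other classes with 11 UMIs.

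Per2 (chr1:91415982-91459324, minus strand) and Ciart (chr3:95878503-95882251, minus strand) were sparse. Per2 gave 125 UMIs over all 6 classes and 3 libraries. Its bipolar level was 19.2, 9.26 and 20 CPM, from 25, 13 and 22 UMIs. Rods held 0, 2 and 0 Per2 UMIs, and endothelial cells 4, 2 and 3. Ciart, a repressor of the ARNTL and CLOCK pair whose window held 3 E-boxes, gave 231 UMIs and was concentrated in Müller glia at 21.0, 21.6 and 32.5 CPM and in bipolar cells at 11.5, 14.96 and 24.5 CPM. In Müller glia it exceeded the mean of the other classes by 2.92 ± 0.29 log2 units (SE, n = 3 libraries; edgeR, adjusted p = 1.87e-12). In rods 1 Ciart UMI was counted in all, and the upper counting limits of 7.69, 3.71 and 9.18 CPM lay below the lower limits in Müller glia.

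The nuclear receptor genes were high in pericytes as well as in bipolar cells. Nr1d1 (chr11:98767932-98775333, minus strand) stood at 274, 205 and 293 CPM in pericytes, at 226, 269 and 272 CPM in bipolar cells and at 227, 229 and 206 CPM in Müller glia. Neighbours among these 3 classes were not separated by edgeR (adjusted p = 0.412 and 0.809). Cones (95.5 ± 14.2 CPM, SD, n = 3 libraries) and endothelial cells (86.2 ± 21.9) overlapped, and rods were lowest at 37.2 ± 8.06. Nr1d2 (chr14:18204054-18239127, minus strand) was highest in bipolar cells at 151 ± 12.0 CPM and pericytes at 127 ± 43.6, and lowest in endothelial cells at 49.4 ± 9.04.

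Of the activators, Clock (chr5:76209868-76304792, minus strand) ranged from 66.3 ± 17.2 CPM in rods to 131 ± 9.73 in bipolar cells (SD, n = 3 libraries). Arntl (chr7:113207465-113314126, plus strand) ran from 17.0, 26.8 and 16.3 CPM in pericytes to 60.5, 56.4 and 70.8 CPM in rods. It was the 1 gene called higher in rods, by 0.82 ± 0.17 log2 units (SE, n = 3 libraries; edgeR, adjusted p = 9.9e-05), and it fell by 1.22 on the log2 scale in pericytes (edgeR, adjusted p = 2.98e-05). Each class in its order overlapped the next, and rods and Müller glia were not separated (edgeR, adjusted p = 0.167).

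**Figure D2:**
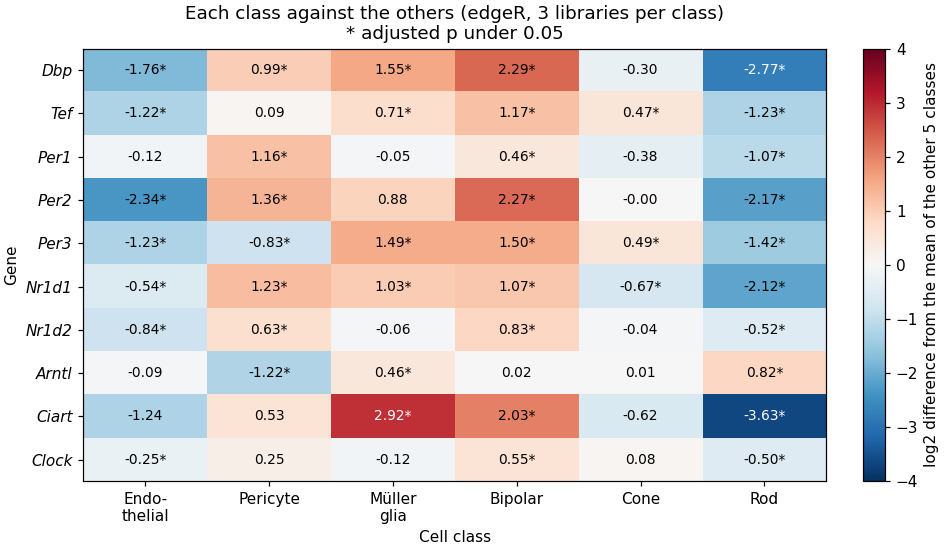
log2 difference of each class (columns) from the mean of the other 5, for each clock gene (rows), with an asterisk where the edgeR adjusted p was under 0.05. Rods were lower for 9 genes and higher for Arntl, and bipolar cells were higher for every gene but Arntl.

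Counted by class at an adjusted p under 0.05, 9 of 10 clock genes were higher in bipolar cells than in the mean of the other 5 classes, where 31.3% of all genes were, and 0 were lower (background 22.8%). In Müller glia 6 were higher (34.8%) and 0 lower (21.6%). Pericytes had 5 higher (29.7%), namely Dbp, Per1, Per2, Nr1d1 and Nr1d2, and 2 lower (19.9%), Per3 and Arntl. In cones 2 were higher (23.0%), Tef and Per3, and 1 was lower (23.2%), Nr1d1. Endothelial cells had 0 higher (36.9%) and 7 lower (28.4%), with Per1, Arntl and Ciart not called in either direction. In rods 1 was higher (22.8%) and 9 were lower (23.7%). The counts in pericytes and cones lay nearer to their backgrounds than those in bipolar cells and rods.

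The scaling of the class sums bears on these counts. Without TMM scaling, the median log2 difference over all genes moved from 0.00 to 0.14 in bipolar cells, from -0.14 to 0.02 in cones and from 0.02 to -0.12 in endothelial cells. The endothelial count of lower genes was then 8, and the other class counts were equal to those above. Rods had a median of 2161 to 2423 UMIs per cell by library, against 5661 or more in endothelial cells, bipolar cells, cones and Müller glia.

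Clock gene levels also varied inside the classes. The 605 Müller glia fell into a group of 489 cells led by Rlbp1 and a group of 116 cells led by Utp14b, Adam23 and Msi1, with medians of 10010 and 3602 UMIs. Dbp was 267 CPM in the first and 140.1 in the second, whereas Per3 was 157 and 382 CPM, Tef 84.5 and 251 CPM and Nr1d2 69.9 and 177 CPM. Rods showed a like contrast between a group of 519 cells and a group of 203 cells led by Rp1 and Samd11. Arntl was 41.2 and 104 CPM in these, Clock 31.3 and 128 CPM and Per3 9.95 and 80.3 CPM, while Dbp was 22.03 and 17.8 CPM. Bipolar clusters spanned 304 to 542 CPM for Dbp and 10.4 to 49.1 CPM for Per1. Endothelial cells led by Gkn3 and Sema3g, an arterial pair, held 51.0 CPM of Dbp and 108 CPM of Nr1d1, against 34.3 and 82.8 CPM in the other endothelial cluster. These clusters were drawn from the same cells without the clock genes, and their differences were not tested.

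The second question was whether clock genes differed between the libraries in the same direction in every class. A gene entered this comparison in a class when the pair of libraries held at least 30 UMIs, and it needed at least 3 such classes. Ratios are given with exact 95% intervals that cover counting error only. All 3 comparisons draw on the same 3 libraries, so their values are set side by side and are not independent.

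**Figure D3:**
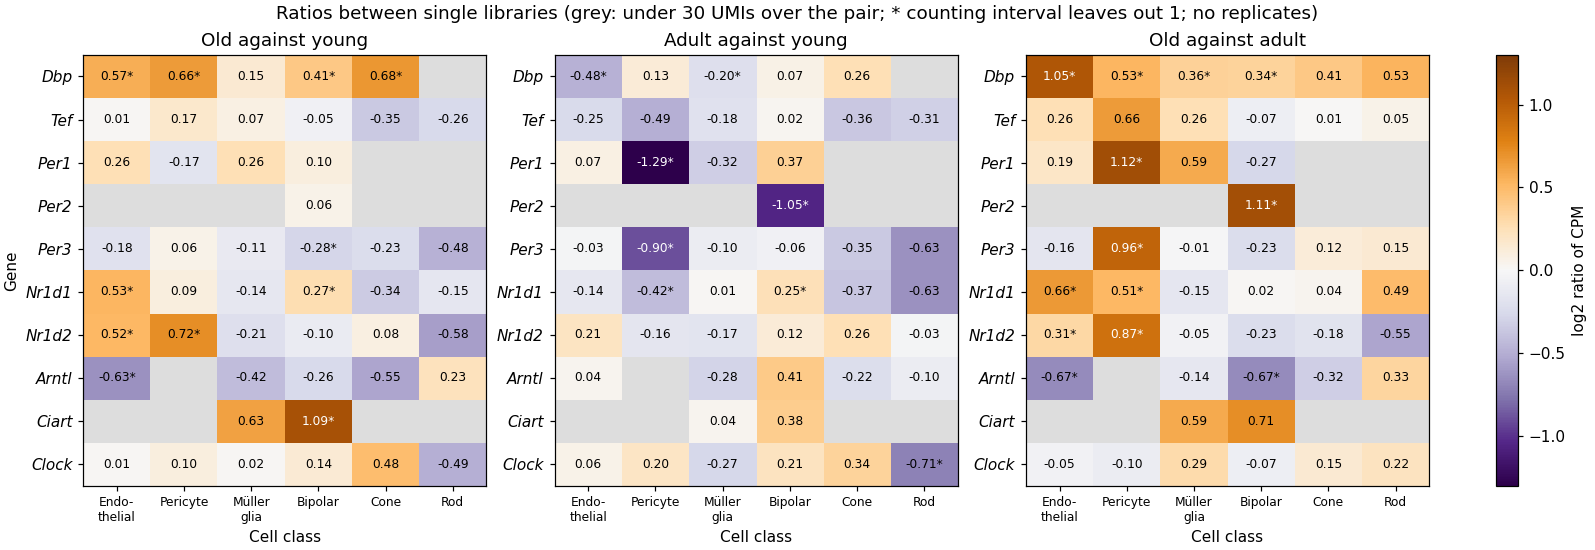
log2 ratio of CPM between libraries for each clock gene (rows) and class (columns) in 3 panels, old against young, adult against young and old against adult. Grey marks under 30 UMIs, and an asterisk a counting interval that leaves out a ratio of 1; the Dbp row has 1 sign in the first and last panels.

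Dbp was the 1 clock gene with a single direction between Old and Young. It was higher in Old in all 5 classes with enough UMIs, by 1.48-fold in endothelial cells (1.17 to 1.89), 1.58-fold in pericytes (1.21 to 2.05) and 1.33-fold in bipolar cells (1.18 to 1.5). The ratio was 1.60 in cones (1.05 to 2.45) and 1.11 in Müller glia, where the interval included 1. In rods, with 26 UMIs over the pair, Dbp was below the limit for a ratio. By the same rule 10.1% of the 7612 genes tested were higher in every class and 6.46% lower, beside 1 of the 8 clock genes that could be judged. Of the 1075 genes judged in 5 classes, as Dbp was, 6.42% were higher in all of them. Nearest to 1, the ratio of Dbp placed it 204th among the 772 genes higher in every class. The leading genes of that order were Irf7 and Lgals3bp, both interferon-induced, at 1.89-fold or more and 1.82-fold or more in 3 and 4 classes.

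Against Adult, Dbp was higher in Old in all 6 classes. It was 2.07-fold higher in endothelial cells (1.59 to 2.71), 1.44-fold in pericytes (1.10 to 1.90), 1.28-fold in Müller glia (1.12 to 1.46) and 1.26-fold in bipolar cells (1.12 to 1.42). Cones and rods gave higher values in Old, with intervals that included 1. By this rule 6.55% of 7800 genes were higher in every class and 6.29% lower, and Dbp was 15th of the 511 higher genes by its ratio nearest 1. Among the 3289 genes judged in all 6 classes, 2.61% were higher in every one. Between Adult and Young it had no single direction, at 0.72-fold in endothelial cells (0.53 to 0.96) and 0.87-fold in Müller glia (0.76 to 0.99), and above 1 in pericytes, bipolar cells and cones. Old therefore held the highest Dbp level of the 3 libraries in each of the 5 classes judged in every pair, and the order of Young and Adult changed with the class.

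The 783 droplets with endothelial and pericyte markers, which entered no class, gave Dbp at 103 CPM in Young, 79.0 in Adult and 121 in Old. That is the order seen in endothelial cells. Within classes, Dbp was higher in Old than in Young in both endothelial clusters (1.49-fold and 1.3-fold) and in each of the 6 bipolar clusters (1.02-fold to 1.61-fold), but was 0.86-fold in the smaller Müller group, with 26 and 25 UMIs.

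No other clock gene judged in at least 3 classes had a single direction between Old and Young. Tef was higher in Old than in Young in 3 of 6 classes and lower in 3, with ratios from 0.78 to 1.12. Per3 was lower in 5 of 6 classes, from 0.72-fold in rods to 1.04-fold in pericytes, and only in bipolar cells (0.82, interval 0.68 to 0.99) did the counting interval leave out 1. Per3 was also the 1 clock gene lower in every class in Adult against Young, at 0.54-fold in pericytes (0.29 to 0.97) to 0.98-fold in endothelial cells, where 4.97% of 7963 genes were lower in every class and 8.88% higher, and 1.33% of the 3448 genes judged in 6 classes were lower in all of them. Its ratio nearest 1 placed it 327th of the 396 lower genes, and it lost the single direction when cells were thinned, when doublets were kept or under stricter cell limits. Per1 was higher in Old than in Young in 3 of 4 classes, with ratios from 0.89 to 1.2. In pericytes it was 0.41-fold in Adult against Young (0.19 to 0.83), from 11 and 34 UMIs. Ciart could be judged in 2 classes only, and Old was the higher library in both against either of the others. In bipolar cells it was 2.13-fold higher in Old than in Young (1.10 to 4.31), from 27 and 15 UMIs, and in Müller glia 1.54-fold (0.98 to 2.44), from 51 and 35 UMIs. Against Adult the ratio was 1.64 in bipolar cells and 1.502 in Müller glia, both with intervals that included 1.

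Nr1d1 and Nr1d2 were both higher in Old than in Young in endothelial cells. In that class Nr1d1 stood at 77.2, 70.2 and 111 CPM, from 254, 237 and 415 UMIs, so that Old was 1.44-fold above Young (1.23 to 1.69) and 1.58-fold above Adult (1.35 to 1.86). Nr1d2 stood at 41.3, 47.7 and 59.2 CPM there, with Old 1.43-fold above Young (1.15 to 1.79), and at 107, 96.4 and 177 CPM in pericytes, with Old 1.65-fold above Young (1.20 to 2.27). In pericytes the Nr1d1 ratio of Old to Young was 1.07, and in bipolar cells it was 1.21 (1.02 to 1.42). Müller glia gave Nr1d1 at 0.91-fold and Nr1d2 at 0.86-fold, and rods gave 0.90-fold and 0.67-fold, all with intervals that included 1. Neither gene had a single direction over the classes in any comparison.

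Arntl was lower in Old than in Young in 4 of 5 classes. Endothelial cells held 39.8, 40.9 and 25.7 CPM, from 131, 138 and 96 UMIs, so that Old was 0.65-fold of Young (0.49 to 0.85) and 0.63-fold of Adult (0.48 to 0.82). Old stood below both, and Adult was 1.03-fold of Young. That last ratio was 1.615 when cells were thinned to 2000 UMIs and 1.32 when cells with markers of another class were left out. By cluster, Old was 0.72-fold of Young in the larger endothelial cluster, from 80 and 107 UMIs, and 0.37-fold in the Gkn3 and Sema3g cluster, from 16 and 24 UMIs. Müller glia held 58.9, 48.4 and 43.9 CPM and cones 52.9, 45.3 and 36.2 CPM, each with an Old to Young interval that included 1. In rods Arntl was 1.17-fold in Old, from 43 and 29 UMIs, with 0.70-fold in the larger rod cluster (13 and 16 UMIs) and 1.56-fold in the smaller (30 and 13 UMIs). Clock, its partner, stood at 69.3, 72.3 and 69.9 CPM in endothelial cells and had Old to Young ratios from 0.71 in rods to 1.40 in cones.

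**Figure D4:**
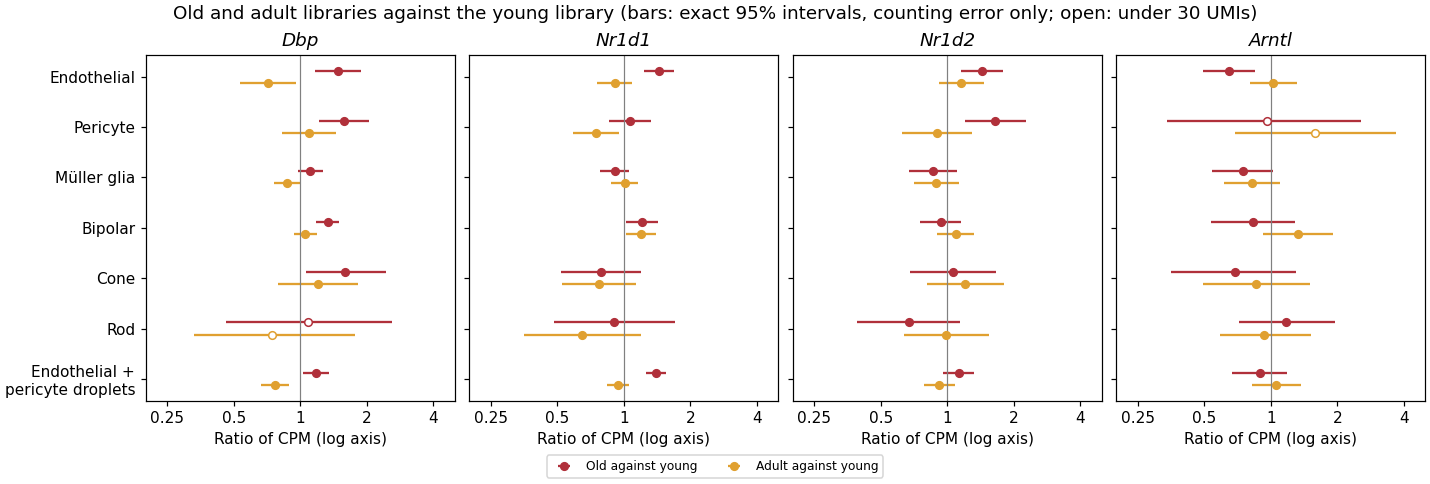
Ratio of CPM (log axis) of Old and of Adult to Young for Dbp, Nr1d1, Nr1d2 and Arntl in 6 classes and in the endothelial and pericyte droplets, with exact 95% intervals for counting error and open points under 30 UMIs. In endothelial cells Old lay above Young for Dbp, Nr1d1 and Nr1d2 (1.48, 1.44 and 1.43) and below it for Arntl (0.65).

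In endothelial cells, the class that the CD31 beads were meant to enrich, 8 of the 10 clock genes had enough UMIs. At a fold of 1.5, Old against Young gave 0 higher (6.06% of 10016 genes) and 1 lower (4.35%), Arntl. Adult against Young gave 0 higher (3.91% of 9937 genes) and 0 lower (2.7%). Old against Adult gave 2 higher (4.19% of 10044 genes), Dbp and Nr1d1, and 1 lower (4.01%), Arntl. The median log2 ratio of the 8 clock genes was 0.14 in Old against Young, beside 0.03 over all genes tested, and 0.22 in Old against Adult, beside -0.01. Over the 6 classes this median was highest in pericytes in Old against Adult, at 0.66 (0.03 over all genes). There 4 of 7 clock genes were past the fold higher (8.74%), Tef, Per1, Per3 and Nr1d2 (1.58-fold to 2.17-fold), and 0 lower (7.54%). It was lowest in rods in Adult against Young, at -0.47 (0.00), with 0 of 6 past the fold higher (7.47%) and 3 lower (9.56%). Some of the endothelial values moved with the handling of depth. When each cell was thinned to 2000 UMIs, the endothelial ratio of Old to Young was 1.19 for Dbp, 1.14 for Nr1d1, 1.45 for Nr1d2 and 0.73 for Arntl. The thinned ratio of Old to Adult was 1.46 for Nr1d1, no longer past the fold, 1.76 for Dbp and 0.45 for Arntl.

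Endothelial libraries also differed in other ways, whose part in the ratios was not tested beyond the values given here. The Gkn3 and Sema3g cluster made up 10.3%, 14.0% and 19.7% of endothelial cells in Young, Adult and Old. The 8 Müller glia markers summed to 2090, 2429 and 2856 CPM in endothelial cells, with 0 of the 8 at zero in every library, and the 8 pericyte markers to 2002, 2008 and 1349 CPM. The 5 erythroid markers summed to 550, 199 and 1360 CPM in endothelial cells, with 0 of the 5 at zero in every library, and to 19.8, 39.3 and 388 CPM in pericytes. In cones they summed to 15060, 30.7 and 26.1 CPM. The 6 smooth muscle markers summed to 1643, 2924 and 2449 CPM in the pericytes of Young, Adult and Old. Cells with at least 3 markers of another class at 2 or more UMIs were 41.3%, 49.9% and 60.3% of endothelial cells. With those cells left out, the Old to Young ratio was 2.12 for Dbp, 1.33 for Nr1d1 and 0.74 for Arntl, so that Dbp and not Arntl was past the fold of 1.5.

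Of 20 other clock genes, 17 were tested between classes and 16 differed among them, beside 92.2% of all genes. In bipolar cells 12 of the 17 were higher (31.3% of all genes), and in endothelial cells 5 were higher (36.9%) and 9 lower (28.4%). Hlf, a D-box factor related to Dbp, was highest in bipolar cells at 514, 579 and 561 CPM. Rorb, a nuclear receptor that acts at the same elements as NR1D1, was highest in Müller glia at 926, 974 and 869 CPM. In endothelial cells Hlf stood at 8.21, 20.4 and 20.1 CPM, so that Old was 2.45-fold above Young (1.56 to 3.95), and Cry1, a repressor, was 1.72-fold higher (1.01 to 3.02). Between libraries, 2 of the 13 other clock genes judged were higher in Old than in Young in every class, beside 10.1% of all genes. Csnk1e, a kinase of PER proteins, was 1 of them, in all 5 classes with enough UMIs (1.07-fold to 1.35-fold). Usp2, a deubiquitinase gene with rhythmic expression, was the other, in 4 classes (1.06-fold to 1.54-fold) and also in Adult against Young (1.08-fold to 1.24-fold). Bhlhe40, a repressor, was higher in Adult than in Young in 4 of 4 classes, as were 8.58% of all genes judged in 4 classes. Rorb was lower in Old than in Adult in 4 of 4, as were 7.57% of such genes.

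Rhythmic retinal genes outside the loop were also counted. Drd4, a dopamine receptor gene of photoreceptors, stood at 623, 629 and 530 CPM in rods, from 299, 625 and 322 UMIs, and at 189, 234 and 201 CPM in cones. Adcy1 stood at 127, 97.7 and 124 CPM in rods. Aanat, the penultimate enzyme of melatonin synthesis, gave 2 UMIs in the 6 classes and Opn4, melanopsin, 4.

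Genes that respond to handling also differed between the libraries. In endothelial cells, Old exceeded Young for 9 of 12 immediate early genes, with a median log2 ratio of 0.11, beside 53.9% of all genes. Fosb fell there from 900 CPM in Young to 657 in Adult and 457 in Old, and the heat shock gene Hspa1b went from 302 to 276 to 92.9 CPM. Of the 6 heat shock genes, 3 were higher in Old than in Young there (median log2 ratio -0.10), which is near that share. In rods all 10 immediate early genes with enough UMIs were higher in Old than in Adult (median log2 ratio 0.91), beside 51.0% of all genes, and all 8 judged in the other pair were lower in Adult than in Young (median log2 ratio -0.70), where 50.5% of all genes were higher. Of the 8 glucocorticoid-responsive genes, 5 of 5 with enough UMIs were higher in Old than in Young in Müller glia (median log2 ratio 0.47), beside 54.1% of all genes, and 2 of 7 in endothelial cells (median -0.11). The part of handling or hormone state in the clock gene values was not tested.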

How the data were processed

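The authors aligned and counted the reads with Cell Ranger 6.1.2 against mm10, per the processing notes, and deposited whole-number UMI counts per gene and barcode for 3 libraries from 10x Genomics v3.1 3′ chemistry. Barcodes with 500 to 6000 genes and 1% to 20% mitochondrial UMIs were kept, as in the study's methods. Scrublet (scanpy 1.11.5) marked 8, 17 and 12 doublets, which were removed after clustering. Cells were integrated and clustered with Seurat 5.3.0 (CCA, 2000 features, 30 components, resolution 0.5), and 60 clock, stress and hormone-responsive genes were kept out of the features. A cluster was named from at least 3 listed markers. UMIs were summed per class and library. Classes were compared with edgeR 4.0.16 (TMM, quasi-likelihood, library as a block, Benjamini-Hochberg adjustment over 12068 genes), which was tested on simulated data. Each SE given for a log2 difference is its size divided by the square root of the F statistic of that fit over all classes and libraries. Intervals of 95% are exact Poisson or exact conditional and cover counting error only. With 1 library per age, no test was made between ages.

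Gene positions came from GENCODE M21 (GRCm38), and the counts pair all gene symbols with identifiers. All 10 clock genes and the 20 other clock genes, 4 rhythmic retinal, 12 immediate early, 6 heat shock and 8 glucocorticoid-responsive genes were listed by name. Other genes were named by rule: the 5 most extreme in each direction by the ratio nearest 1 and the 3 genes most like each member in pattern. The members and lists were chosen with earlier results of these data known. Alternatives covered normalization, DESeq2 1.42.0, filters, thinning, free RNA, doublets, mixed cells and each library left out. Some items are not reported here.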

Additional observations from a re-analysis of the deposited data

How the results depend on the processing

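No paired analysis between ages was possible because the 3 ages share only replicate number 1, fewer than 2 numbers. The comparisons between classes took library as a block. The 10 clock genes that differed between classes stayed 10 in every alternative, including each library left out (10 to 10). The endothelial count of 7 lay between 6 and 7 with a library left out and was 6 to 8 otherwise. DESeq2 and edgeR without TMM, the latter chosen after seeing the data, both gave 8. The count past the fold in endothelial cells in Old against Young, 1, was 0 with cells thinned, 2 with the mean of single-cell CPM and 4 at a lower fold threshold. With the mean of single-cell CPM these 2 were Nr1d1 (1.52) and Nr1d2 (1.503), both higher, and Arntl (0.74) was not past the fold. With cells carrying markers of another class left out, the 1 was Dbp (2.12), higher. In Adult against Young, 0 became 2 with thinning, Arntl higher (1.615) and Tef lower (0.61), and 1 at the lower fold threshold. For a single direction in every class, the count of 1 in Old against Young became 2 with median of ratios size factors, 3 at 100 UMIs and 3 under limits of 1000 to 6000 genes and 1% to 10% mitochondrial UMIs. In Adult against Young, 1 became 0 with thinning, 0 without doublet removal and 2 with size factors, where Tef joined Per3. Under the stricter limits the count stayed 1, but the gene was Per1 (lower in 3 of 3) and not Per3. In Old against Adult, 1 became 2 at 100 UMIs, with Arntl lower, and 2 under the stricter limits, with Per1 higher. Dbp was higher in every class in each alternative, in Old against Young and in Old against Adult. Per3 was lower in every class in Old against Young under size factors, at 100 UMIs and under the stricter limits. With thinning, Per3 was instead higher in 2 of 4 classes, with an endothelial ratio of 1.145. With the mean of single-cell CPM it was higher in 3 of 6, with an endothelial ratio of 1.05. Clock was higher in every class at 100 UMIs (4 of 4) and Per1 under the stricter limits (3 of 3). The share of all genes with a single direction was not counted under these alternatives, some of which left fewer classes to judge. In the main setting, Old against Young, 15.9% of genes judged in 3 classes were higher in all of them and 13% lower. Among genes judged in 6 classes these shares were 7.74% and 2.21%. Except where fewer classes could be judged, the cause of these moves was not tested. Few UMIs limited Per2, Ciart and the rod ratios of clock genes, of which 1 had an interval that left out 1, in Adult against Young. The lack of a second library at any age limits every comparison between ages.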

Other observations

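Groups of cells too small or too mixed for the comparisons also carried clock genes. The 51 amacrine cells held 157 CPM of Dbp, 157 of Clock, 126 of Nr1d1 and 120 of Per3. Their Dbp was not highest in Old, at 164, 160 and 150 CPM in Young, Adult and Old, from 16, 17 and 22 UMIs. The 62 retinal pigment epithelium cells, 54 of them from Old, held 220.5 CPM of Dbp (67 UMIs) with 0 UMIs of Arntl. In 144 B cells, Dbp stood at 11.5 CPM and Nr1d1 at 4.94 CPM, with 0 UMIs of Ciart. The 113 droplets with pericyte and smooth muscle markers held 20.1 CPM of Dbp, against 190 in pericytes, and 119.5 CPM of Nr1d1, against 258.

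For 7 members, the genes most alike in pattern were sought over 18 class and library sums after each class mean was removed, among 4478 genes. For Dbp these were Hspa8, Tuba1a and Ckb (Pearson's r 0.83, 0.82 and 0.82), for Tef Nup98 (0.90), for Per3 Tmem134 (0.88), for Nr1d1 Tsfm (0.79), for Nr1d2 Ghitm (0.87), for Arntl Cep350 (0.88) and for Clock Cdc42bpa (0.86). The 18 points share 3 libraries, so these values only describe them.

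Genes with 1 direction in every class, ordered by the ratio nearest 1, were led by genes outside the clock. Irf7, Lgals3bp, Ptprn, Syde1 and Nprl2 were at least 1.46-fold higher in Old than in Young, and Gm26802, Mtcp1, Zswim9, Klhl36 and Dclre1a were 0.72-fold or less. In Adult against Young, Sncg, Map10, Nsun3, Fscn2 and Cryab were at least 1.45-fold higher, and Ednrb, Gm26802, Lars2, Rps6ka2 and Gcfc2 were 0.73-fold or less. Cryab was also a leading gene of a cluster of 37 lens cells, all from Adult. The 4 lens markers summed to 0.60, 544 and 1.91 CPM in the Müller glia of Young, Adult and Old. The part of lens RNA in the Cryab ratios was not tested. In Old against Adult, Ppih, Vps37c, Lgals9, Mt2 and Lars2 were at least 1.40-fold higher, and Igfbp5, Fen1, E530011L22Rik, mt-Nd6 and Plcxd2 were 0.71-fold or less. Most had enough UMIs in 3 classes.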
